A study of Mus musculus with 14 samples.

Results

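CTCF occupancy and H3K27 acetylation were followed around 10 genes that encode the Nodal, Wnt and Fgf signals of germ layer formation and their secreted antagonists: the ligands Nodal, Wnt3, Wnt3a, Wnt8a, Fgf5 and Fgf8 and the antagonists Lefty1, Lefty2, Cer1 and Dkk1. Members were the peaks of the 8 CTCF lists and the 2 H3K27ac lists that lay within 100 kb of a start site of these genes (mm10), split into promoter peaks, within 3 kb, and distal peaks. Of 86652 CTCF sites merged over all lists, 175 met this rule, 11 of them at promoters and 164 distal. Of the H3K27ac peaks, 118 of 38982 in WT and 114 of 45318 in K20R met it. Start sites of Lefty1 and Lefty2 are 41914 bp apart, so many of their sites lie in range of both. Such a site was named after the nearer start site and counted for both genes.

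The cells were E14Tg2A mouse embryonic stem cells, either wild type (WT) or edited with CRISPR/Cas9 so that lysine 20 of the endogenous CTCF is an arginine (CTCF-K20R, below K20R). Day 0 cells were mESCs kept on inactivated fibroblast feeders with LIF and 2i inhibitors, and day 4 cells were embryoid bodies (EBs) grown in hanging drops with serum and without LIF. Each genotype and day had 2 CTCF ChIP-seq libraries, while H3K27ac was measured at day 4 in 1 library per genotype and so has no replicate check and no test. The sources used here do not tie the K20R libraries to more than 1 edited clone, so the mutation and the clone cannot be told apart. Since an EB mixes cell types, fewer cells of a type and a weaker signal per cell cannot be told apart either.

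Nodal, a ligand of the TGF-beta superfamily, acts through activin receptors and Smad proteins to specify mesoderm and endoderm, and Lefty proteins and Cer1 bind and block it outside the cell. Wnt ligands stabilise beta-catenin, which drives primitive streak genes together with TCF/LEF factors, and Dkk1 limits this by binding Wnt co-receptors. Fgf5 marks the epiblast, and Fgf8 is needed for cells to leave the streak. CTCF is a zinc finger protein that stops cohesin and so shapes chromatin loops, and H3K27ac marks active promoters and enhancers.

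The sequences below show the CTCF motif at the sites on which the results turn: a promoter site that was kept, the strongest distal site near Nodal, and sites near Fgf5 and Wnt3 that were found at day 4 in WT and not in K20R. Capitals mark the best 19-base match to a CTCF matrix built from the strongest peaks of these lists, and each line reads 5′ to 3′ on the strand of the motif.
Nodal promoter site, chr10:61417566-61417624, minus strand: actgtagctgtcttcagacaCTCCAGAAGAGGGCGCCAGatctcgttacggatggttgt
Nodal distal site, chr10:61492225-61492283, plus strand: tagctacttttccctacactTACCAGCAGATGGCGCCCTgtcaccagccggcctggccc
Fgf5 site 55.6 kb upstream, chr5:98198560-98198618, minus strand: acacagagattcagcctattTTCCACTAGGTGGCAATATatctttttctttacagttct
Fgf5 site 77.7 kb upstream, chr5:98176493-98176551, minus strand: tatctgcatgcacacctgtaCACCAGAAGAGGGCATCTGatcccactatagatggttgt
Fgf5 site 41.5 kb upstream, chr5:98212670-98212728, plus strand: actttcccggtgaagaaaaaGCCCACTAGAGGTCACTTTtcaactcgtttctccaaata
Wnt3 promoter site, chr11:103772719-103772777, plus strand: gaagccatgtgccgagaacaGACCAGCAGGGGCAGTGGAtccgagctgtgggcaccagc
Matches at the Nodal promoter site and the Fgf5 site 77.7 kb upstream lie in masked repeats, and the Wnt3 match lies 73 bp from its summit. The matches scored 20.24 and 19.88 bits at the Nodal sites, 13.03, 11.24 and 8.98 bits at the Fgf5 sites in the order shown and 7.37 bits at the Wnt3 site, against a threshold of 5.37 bits that 5% of sequences taken 1 kb from summits passed. The Fgf5 site 56.3 kb downstream had no match above this threshold, and its sequence is printed around the summit, on the plus strand, without capitals.
Fgf5 site 56.3 kb downstream, chr5:98310701-98310759: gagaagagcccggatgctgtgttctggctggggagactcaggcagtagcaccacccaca

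Near the 10 genes, fewer CTCF peaks were called in K20R than in WT at day 4, with no overlap between the libraries. WT had 116 and 120 peaks and K20R had 81 and 95, or 118 ± 2.83 against 88 ± 9.9 (SD, n = 2 each). The exact permutation test gave p = 0.333, the smallest that 2 against 2 libraries allow. At day 0 WT had 147 and 95 peaks and K20R had 97 and 91, so the groups overlapped (121 ± 36.8 against 94 ± 4.24, SD, n = 2 each, two-sided exact permutation p = 0.667). The genotype effect at day 4 differed from that at day 0 by -3 peaks (exact permutation within days, p = 0.944). These peaks made up 0.175 to 0.2% of each list, and the lists themselves ran from 41360 peaks (K20R, day 4) to 77657 (WT, day 0, replicate 1). When each list was cut to the 41360 peaks with the lowest p-values, the day 4 difference shrank to -2 peaks (exact permutation p = 1.0) and the day 0 difference to -2 as well. The first WT library of day 0 stood apart, since 25 of the 47 member sites that appeared in a single library were found in it. The same held over all sites, with 11749 of 17954, so it is a trait of the whole list. Without this library the day 0 difference was -1.

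**Figure D1:**
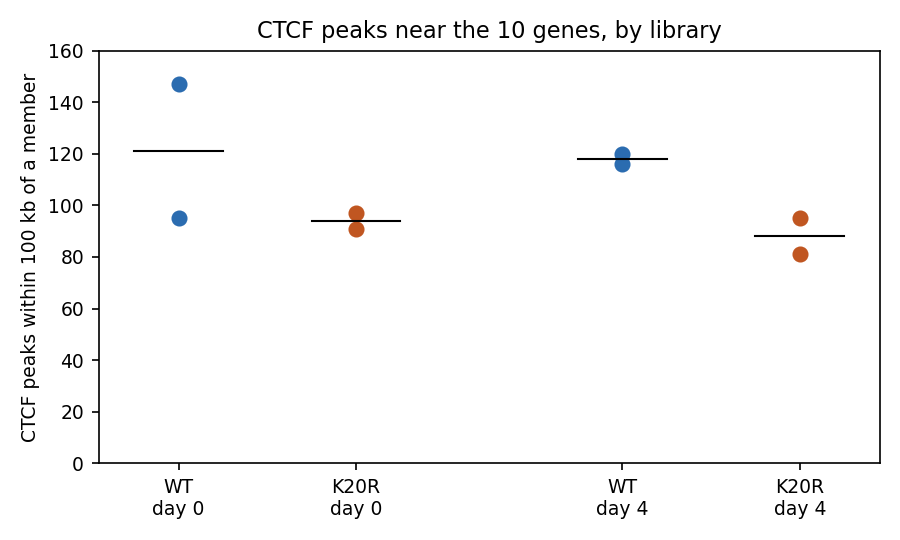
CTCF peaks within 100 kb of the 10 genes (vertical axis, number of peaks) in each of the 8 libraries, with points for libraries and black lines for group means. At day 4 both K20R libraries (81 and 95) lie below both WT libraries (116 and 120), and at day 0 one WT library (147) stands above the other 3.

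At day 4, 17 of the 100 sites found in both WT libraries were in neither K20R library (lost, 17.0%), 72 were in all 4 libraries, and 0 of the 73 sites found in both K20R libraries were absent from WT (gained). Over all sites the shares were 18.8% lost and 0.536% gained, so the genes were close to the background. At promoters 2 of 7 were lost and at distal positions 15 of 93. The shares over all promoter and all distal sites are not given here, so no promoter difference is read from these counts. Fgf5 had 4 lost sites, Cer1 3, Nodal, Wnt3, Wnt3a and Wnt8a 2 each, Lefty2 and Fgf8 1 each, and Lefty1 and Dkk1 had 0. At day 0, 10 of 90 sites were lost (11.1%, against 7.69% of all sites) and 0 of 83 gained (0.426% of all sites), with none lost at a promoter. Of the 17 sites lost at day 4, 1 was lost on both days (5.88%), against 1234 of 10345 over all sites (11.9%).

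Lost sites had lower median strength in WT than kept sites, and the ranges overlapped. Strength is given as the percentile of a peak's fold enrichment within its own list. The 17 lost sites had median percentiles of 15.2 and 17.4 in the WT libraries of day 4, with 6 to 23 reads stacked at the summit (medians 9 and 10), while the 72 kept sites had medians of 74.8 and 75.0 and 12 to 100 reads (medians 48 and 46). Lost sites reached percentiles of 53.9 and 52.3, at the Fgf5 site 55.6 kb upstream, and kept sites went down to 25.2 and 26.8. Over all sites the lost ones had medians of 22.0 and 22.3 and the kept ones of 68.1 and 68.5. The CTCF motif matched in 11 of 17 lost sites (64.7%) and in 64 of 72 kept sites (88.9%). The matrix was built from the strongest peaks, and the shares over all lost and all kept sites are not given here. Whether this difference is particular to the 10 genes was not tested. With lists of 1 length, 3 sites were lost at day 4, near Wnt3a, Cer1 and Fgf5, against 17 with the full lists, and 0 at day 0 against 10. The share over all sites was then 5.63% lost and 4.89% gained at day 4, and 3.21% lost and 3.11% gained at day 0. With these lists 1 site near Wnt3a, 22410 bp downstream, counted as gained on both days.

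**Figure D2:**
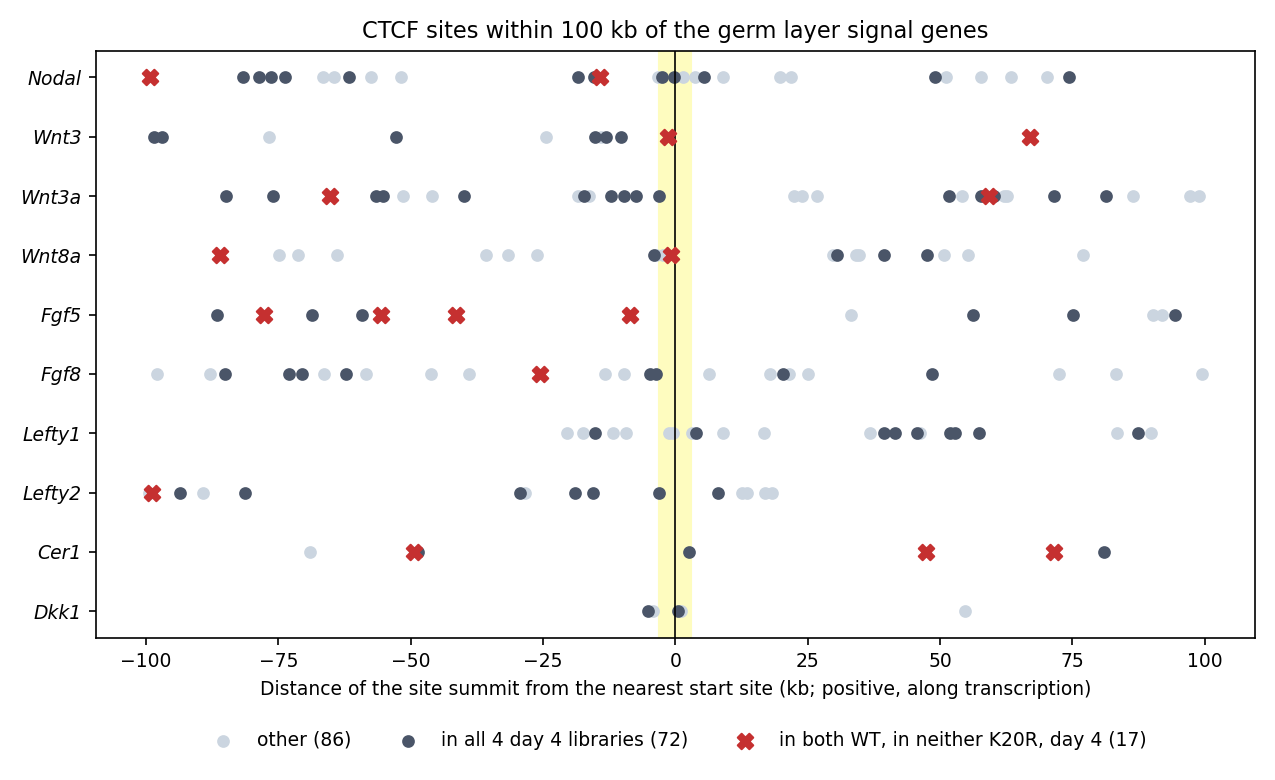
CTCF sites by distance of their summit from the nearest start site (horizontal axis, kb; negative values upstream, shading within 3 kb) for each gene. Dark points are the 72 sites in all 4 day 4 libraries, red crosses the 17 in both WT and in neither K20R library, and pale points the other 86.

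Nodal had a strong distal CTCF site and 2 promoter sites kept in all libraries. The site 74.3 kb downstream of Nodal, in an intron of Lrrc20 (chr10:61491877-61492828), had percentiles of 99.2 and 98.8 in WT at day 0, 90.2 and 90.3 in K20R, and 93.4 and 92.5 in WT and 97.4 and 99.2 in K20R at day 4. The promoter site 332 bp upstream (chr10:61417216-61417966) was found in all 8 libraries at percentiles of 30.3 to 50.9, and K20R lay within the WT range at day 4 (44.2 and 43.8 against 38.2 and 50.9). A second promoter site, 2595 bp upstream, was also in all 8 libraries and had its lowest values in K20R at day 4 (19.5 and 5.25). The last, 1406 bp into the gene, was a 6-read peak of 1 K20R library. At distal positions 2 sites were lost at day 4, at 99.2 kb (15.2 and 10.5 in WT) and 14.3 kb upstream (6.35 and 4.43). In WT, a site 3.72 kb into the gene had been lost between day 0 (45.3 and 14.2) and day 4.

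Fgf5, the epiblast ligand, had 4 of the 6 sites that WT acquired with differentiation in the full lists. In WT, 6 of the 100 sites found in both day 4 libraries had been in neither day 0 library (3.81% over all sites), and 4 of them were near Fgf5. The site 56.3 kb downstream of Fgf5 (chr5:98310503-98310872), between genes, had no peak in either WT library or in the first K20R library of day 0 and a 7-read peak at percentile 0.0838 in the second. At day 4 it reached percentiles of 56.6 and 56.5 in WT (30 reads each) and 13.4 and 21.6 in K20R (16 and 18 reads), so both genotypes had it and K20R lay below WT. It sits in an H3K27ac peak present in both genotypes, 3481 bp wide in WT (5.72-fold) and 3346 bp in K20R (4.15-fold).

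The other 3 acquired Fgf5 sites, all upstream, were in neither K20R library of day 4. The site 77.7 kb upstream stood at percentiles of 27.6 and 20.1 in WT, the one 41.5 kb upstream at 29.0 and 25.9, and the one 8.64 kb upstream at 5.16 and 15.5. The first of these had a 10-read peak in 1 K20R library of day 0. The remaining lost Fgf5 site, 55.6 kb upstream between genes, was the one lost on both days: its percentiles were 39.4 and 29.3 in WT at day 0 and 53.9 and 52.3 at day 4, and no K20R library had a peak there. This site was lost also with lists of 1 length, while the 3 acquired upstream sites and the Wnt3 and Wnt8a promoter sites described below were then counted as neither lost nor acquired. The site 56.3 kb downstream was acquired in both genotypes with those lists, and the other 3 sites that WT then acquired were 93459 bp upstream of Lefty2, 59442 bp downstream of Wnt3a and 49317 bp upstream of Cer1, 1 at each gene. With lists of 1 length WT acquired 4 of 76 sites (5.75% over all sites) and K20R 1 of 71 (3.33%). Of the 6 sites that WT acquired in the full lists, 5 were absent from both K20R libraries of day 4 (85.1% over all acquired sites). In the full lists K20R itself acquired 0 of 73 (1.18%).

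Of Wnt3, Wnt3a and Wnt8a, ligands of the primitive streak, Wnt3 and Wnt8a had a promoter CTCF site lost in K20R at day 4. The Wnt3 promoter site, 1475 bp upstream (chr11:103772593-103773110), was a 9-read peak in both WT libraries of day 4 (percentiles 12.6 and 12.9) and in no other library. The Wnt8a promoter site, 769 bp upstream (chr18:34541319-34541685), had percentiles of 21.3 and 26.6 in WT at day 4 and no peak elsewhere, and a second, 2256 bp upstream, was found in 1 WT library of day 4. Wnt3a had no site within 3 kb, and its nearest lay just outside, 3051 bp upstream. At that site percentiles at day 0 were 98.2 and 97.0 in WT and 76.6 and 83.9 in K20R. At day 4 they were 68.5 and 70.5 in WT and 71.9 and 90.9 in K20R, so by percentile the order of the genotypes turned. Fold enrichment overlapped at day 0 (49.2 and 35.7 in WT, 37.2 and 43.5 in K20R), so by fold there was no turn. Distal losses at day 4 were at 66.9 kb downstream of Wnt3, at 59.3 kb downstream (34.0 and 39.8 in WT) and 65.2 kb upstream of Wnt3a, and at 86.0 kb upstream of Wnt8a. The strongest sites, all kept, lay 15.2 kb upstream of Wnt3 (79.7 to 98.5 over the 8 libraries), 40.0 kb upstream of Wnt3a (79.6 to 98.1) and 3.98 kb upstream of Wnt8a (69.9 to 94.0).

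Fgf8 had 1 site lost at day 4, 25.6 kb upstream, at percentiles of 15.2 and 15.5 in WT. Its strongest site, 4.74 kb upstream, held between 87.0 and 96.2 in all 8 libraries. Lost at day 0 were sites 83.3 kb downstream, 46.1 kb upstream and 98.0 kb upstream, and both upstream ones were found in 1 K20R library of day 4.

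Among the antagonists, Cer1 had the highest share lost: 3 of the 7 sites found in both WT libraries of day 4 and 3 kept. The promoter-range site, 2493 bp downstream of the start in an exon of Cer1, was found in all libraries. Its percentiles were 85.9 and 69.2 in WT and 71.6 and 83.2 in K20R at day 0. At day 4 they were 69.4 and 62.2 in WT and 49.8 and 56.0 in K20R, without overlap. Fold enrichment at day 4 did overlap (19.4 and 16.5 in WT, 14.8 and 22.7 in K20R). Summit reads overlapped as well (33 and 28 in WT, 25 and 38 in K20R). The lost sites were 71.6 kb downstream (26.4 and 22.3), 47.4 kb downstream (1.75 and 20.1) and 49.3 kb upstream (40.5 and 32.9). The first of them was present in all 4 libraries of day 0. A site 69.1 kb upstream was lost at day 0 and was found again in 1 K20R library of day 4. The strongest Cer1 site, 48.7 kb upstream, stood at 62.6 to 90.9.

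Lefty1 had 0 sites lost at day 4. Its promoter site 379 bp upstream was at 49.8 and 25.6 in WT and 21.0 and 21.2 in K20R at day 0, and at day 4 at 25.4 and 22.0 in WT, with no peak in 1 K20R library and 12.4 in the other. Another, 1158 bp upstream, was in 1 WT library of day 0. Lefty2 lost a site 98.9 kb upstream, a weak peak of 2.46 and 8.75. With differentiation, both genotypes lost the site 89.2 kb upstream of Lefty2 (48.0 and 33.0 in WT, 30.3 and 37.4 in K20R at day 0). At day 0 K20R lacked sites 20.5 kb upstream and 9.02 kb downstream of Lefty1 and 13.5 kb downstream of Lefty2. The strongest sites, 15.1 kb upstream of Lefty1 (90.8 to 99.0) and 18.9 kb upstream of Lefty2 (84.6 to 98.5), were in all libraries. Dkk1 kept its promoter site 474 bp downstream, with 42.9 and 26.8 in WT and 19.5 and 45.4 in K20R at day 4, so the genotypes overlapped. A weaker site 1023 bp downstream appeared in 1 WT library on each day. Its strongest site lay 5.15 kb upstream (42.6 to 83.0).

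**Figure D3:**
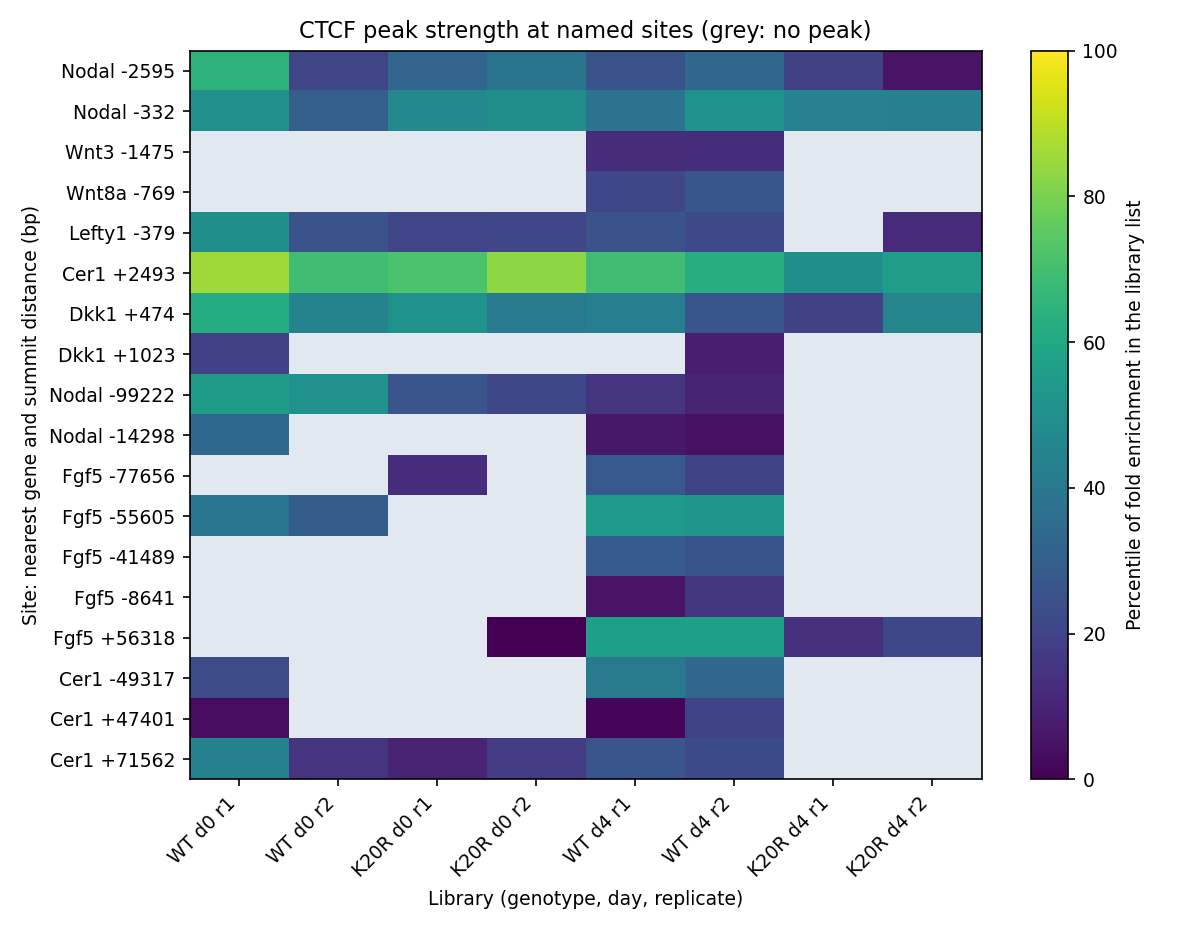
Percentile of fold enrichment (colour) of 18 CTCF sites (rows, promoter sites first, by gene and summit distance in bp) in the 8 libraries (columns, genotype, day and replicate); grey means no peak. The Wnt3 and Wnt8a promoter sites and 2 Fgf5 sites have colour in WT at day 4 and nowhere else, while the Fgf5 site 56.3 kb downstream has colour in all 4 libraries of day 4.

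With differentiation, WT lost 7 of 90 sites (5.75% over all sites) and K20R lost 4 of 83 (9.1% over all sites). Besides those given above, WT lost sites 20.5 kb upstream of Lefty1, 13.5 kb downstream of Lefty2, 83.3 kb downstream of Fgf8, 14.0 kb upstream of Wnt3 and 99.0 kb downstream of Wnt3a. These 5 were also among the 10 lost in K20R at day 0. Both calls start from the same WT libraries of day 0, and the share over all sites is not given here, so nothing is read from this overlap. K20R lost sites 71.6 kb downstream of Cer1, 99.2 kb upstream of Nodal and 89.2 and 28.4 kb upstream of Lefty2.

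In strength, the 70 sites found in all 8 libraries had median percentiles of 84.5 and 74.0 in WT and 75.5 and 75.7 in K20R at day 0, and of 75.2 and 75.3 in WT and 69.4 and 73.4 in K20R at day 4. The mean of the medians in K20R minus that in WT was -3.68 at day 0 (exact permutation p = 1.0) and -3.85 at day 4 (exact permutation p = 0.333, the smallest possible). Over all 36440 constant sites the medians at day 4 were 69.8 and 69.9 in WT and 55.6 and 61.6 in K20R. A percentile within a list falls when the list holds fewer weak peaks. At day 4 the K20R lists held 41360 and 47463 peaks and the WT lists 61088 and 61436. Median fold enrichment of the whole lists was higher in K20R (14.8 and 18.8) than in WT (12.5 and 12.5). The lower percentiles in K20R are therefore not read as weaker binding. Both K20R values lay below both WT values at 35 of 70 sites at day 0 (40.0% over all constant sites) and at 31 of 70 at day 4 (54.2%), and above them at 13 (16.7%) and 18 (14.4%). Ranked among the constant sites alone, an alternative added after seeing the data, the sites near the 10 genes stood 6.69 percentile points higher in K20R than in WT at day 4 (exact permutation p = 0.333), so the direction depends on the scale. Within 50 kb of the start sites the day 4 difference was -0.766 (exact permutation p = 1.0), and within 200 kb it was -9.34 (exact permutation p = 0.333).

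H3K27ac promoter peaks were in both genotypes at Nodal, Lefty1, Lefty2, Wnt8a and Fgf5, in WT only at Cer1, Fgf8 and Wnt3, and in neither at Dkk1 and Wnt3a. Thus 3 of the 8 genes with a WT promoter peak had no K20R peak there, against 5.03% of all protein-coding genes with a WT promoter peak, and 0 of the 5 genes with a K20R promoter peak lacked a WT peak, against 7.3% of all protein-coding genes with a K20R promoter peak. With 1 library per genotype these are counts without a test. Cer1, the Nodal antagonist, had 4 WT peaks within 100 kb and 0 in K20R, where the nearest peak was 348559 bp from the start. Its promoter peak was 2134 bp wide (4.56-fold), and the other 3, all 25456 to 35177 bp downstream in introns of Zdhhc21, had folds of 3.26 to 4.29. The Cer1 promoter (RefSeq, GRCm38.p6) before the start, chr4:82885152-82885401, minus strand, is given because this peak lies on it, with no capitals because neither TCAAAG (a TCF/LEF word) nor TGTNNATT (a FOXH1 word) occurs in it on either strand.
Cer1 promoter: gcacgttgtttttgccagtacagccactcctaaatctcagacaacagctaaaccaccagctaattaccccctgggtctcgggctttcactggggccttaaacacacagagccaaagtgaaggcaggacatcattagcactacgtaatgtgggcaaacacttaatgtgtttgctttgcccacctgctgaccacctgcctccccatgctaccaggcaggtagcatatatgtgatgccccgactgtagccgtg
Those words occur in 13.8% and 10.9% of 32851 RefSeq promoters of 250 bases.

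At Wnt3 the WT promoter peak was 3956 bp wide and 3.43-fold (-log10 q of 2.57), a second promoter peak of 2.88-fold lay beside it, and K20R had none closer than 66239 bp. The CTCF promoter site found in WT at day 4 lay within the first of these peaks. At Fgf8 a WT peak of 18583 bp (6.91-fold) covered the gene, and the nearest K20R peak (5969 bp, 4.86-fold) overlapped its upstream end but stopped 3232 bp from the nearest start site, so Fgf8 counts as marked in both when the promoter is taken as 5 kb, a distance tried after seeing the data. At 1 kb the same 3 genes were WT only. At 5 kb they were 2 of 8, against 5.04% of all protein-coding genes with a WT promoter peak. At Fgf5, 1 WT peak of 3311 bp (5.76-fold) faced 2 K20R peaks of 811 and 917 bp (3.80 and 3.61-fold). Nodal had a 7741 bp peak in WT (7.41-fold) and a 6879 bp peak in K20R (5.46-fold). Lefty1 went the other way, with 3761 bp and 3.72-fold in WT and 5636 bp and 4.56-fold in K20R. Lefty2 had 2 promoter-range peaks in WT, the stronger of 6.38-fold, and 3 in K20R, the strongest of 7.24-fold, of which 1 peak, 433 bp upstream (3.15-fold), overlapped no WT peak. Wnt8a had 4.09-fold in WT and 3.21-fold in K20R.

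**Figure D4:**
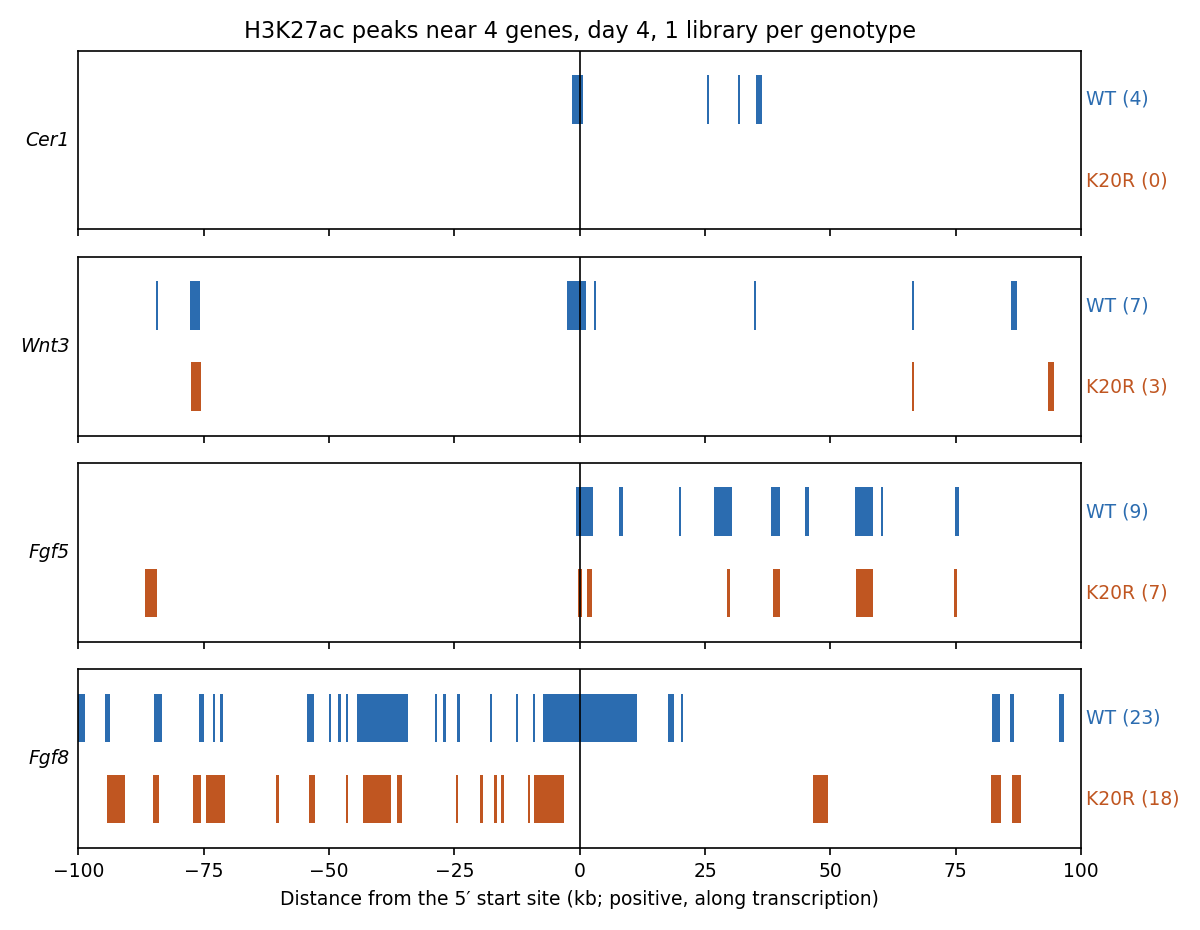
H3K27ac peaks (bars, to scale but at least 0.4 kb wide) by distance from the 5′ start site (horizontal axis, kb) in WT (blue) and K20R (orange) at day 4 for 4 genes, with the number of peaks at the right. Cer1 has 4 WT peaks and 0 K20R peaks, and the Wnt3 start is covered in WT only.

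Over the whole 100 kb windows 46 of 118 WT peaks had no overlapping K20R peak (39.0%, against 36.9% of all WT peaks), and 40 of 114 K20R peaks had no WT peak (35.1%, against 46.9%). Distal peaks in 1 genotype numbered 43 in WT and 39 in K20R. Among them the highest folds were 4.29 in WT, downstream of Cer1, and 4.28 in K20R, 51.7 kb downstream of Wnt3a. No H3K27ac peak lay within 100 kb of Dkk1 in either genotype, although its CTCF promoter site was in all 8 libraries. CTCF sites lost at day 4 lay in a WT H3K27ac peak in 3 of 17 cases, and kept sites in 18 of 72. For K20R H3K27ac peaks the counts were 2 of 17 and 25 of 72. The shares over all lost and all kept sites are not given here.

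Markers of the cell states were read from the promoter peaks. Pluripotency genes carried H3K27ac in 5 of 7 cases in WT and 6 of 7 in K20R, and early mesoderm genes in 3 of 5 (Eomes, T and Tbx6) and 1 of 5 (Tbx6), so that Eomes and T were marked in WT only, as were Cer1, Wnt3 and Fgf8, and the other 3 mesoderm genes had the same state in both. Neural genes were marked in 1 of 3 in each genotype and endoderm genes in 0 of 3. Of 6 feeder fibroblast markers only Thy1 was marked, in both. The part of cell composition in the H3K27ac differences was not tested.

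Across 84 other genes of the same pathways, 129 of 792 sites were lost at day 4 (16.3%) and 3 gained, and at day 0 62 of 757 were lost (8.19%). Their promoters lost 13 of 68 sites and gained 1, without a share over all promoter sites to set beside them. The strongest lost promoter sites were those of Grb2, an adaptor of Fgf receptors (34.0 and 39.8 in WT at day 4), of Wnt5b, a Wnt ligand (25.0 and 17.8), of Dkk3, a Dickkopf family member (38.6 and 47.4), of Sfrp2, a Wnt-binding antagonist (18.5 and 13.3), and of Axin2, a target and brake of Wnt signalling (23.9 and 10.5). Sites were lost also at Spry2, Bmp4, Tdgf1 (the Nodal co-receptor), Fgf18 and, with 2 each, Chrd and Lrp5, and the gained site was at Fzd2, a Wnt receptor (1.96 and 14.2 in K20R). H3K27ac promoter peaks were in WT only at Wnt11 (5.24-fold), the BMP antagonist Chrd (4.23) and the Wnt target Sp5 (3.04), and in K20R only at Fgf4 (6.47), Dkk4 (3.89), Fgf18 (3.42) and Fgf15 (3.28). Of the 84 genes 55 were marked in both and 22 in neither. WT-only genes were thus 3 of the 58 marked in WT (5.17%) and K20R-only genes 4 of the 59 marked in K20R (6.78%), close to the shares over all protein-coding genes given above.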

How the data were processed

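ChIP-seq was analysed in 8 CTCF and 2 H3K27ac libraries of mouse cells; the 4 input samples were not used here. Per the study's methods, the authors trimmed reads, aligned them to mm10 with bowtie2, removed duplicates and blacklisted regions, subsampled the CTCF reads to one number and called peaks with MACS2 in each library separately, with broad peaks for H3K27ac. The deposited ratio is the fold enrichment over the local background, and the deposited p and q values of the authors are on the -log10 scale. The score the authors' caller adds to each peak, a scaled -log10 q, was not used. From fold and p the whole number of reads at each CTCF summit was recovered in 100.0% of peaks (-log10 p under 200, tolerance 0.01). Total library depth is not given in the peak lists, and the depth of a broad peak is unknown.

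CTCF peaks were merged across lists where they overlapped. A site is lost where both libraries of the first group and neither of the second have a peak, and gained in the reverse case. Members and lists were chosen with earlier results of these data known. Named are all 10 genes with their promoter sites, every lost or gained site, the strongest site and the promoter H3K27ac peaks, and pathway genes with a changed promoter. Group means were compared by two-sided exact permutation over libraries (2 against 2, smallest p 0.333). Whether replicates came from separate cultures beyond the study's word biological is not given, so p-values measure the spread between these libraries. Genes were taken from GENCODE M21, and code was tested on simulated data. Tables were handled with pandas 2.3.3 and genome sequence was read with pysam 0.24.0.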

Additional observations from a re-analysis of the deposited data

Results flagged for a closer look

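At 14 of the 70 sites near the 10 genes found in all 8 libraries, the order of the genotypes by percentile turned between days. Both K20R percentiles lay on one side of both WT percentiles at day 0 and on the other at day 4. This was 20.0%, against 11.3% of all constant sites. The difference between days was not tested. The K20R effect in percentile points at day 4 minus that at day 0 was -55.3 at the site 12131 bp upstream of Wnt3a (59.5 and 46.6 in WT and 75.5 and 71.7 in K20R at day 0, then 75.1 and 75.1 in WT and 29.6 and 51.2 in K20R), -48.7 at 7373 bp upstream of Wnt3a, 29.2 at 3051 bp upstream, 25.8 at 71489 bp downstream and 12.6 at 39997 bp upstream. It was 38.0 at the site 30610 bp downstream of Wnt8a and -25.8 at 15214 bp upstream of Wnt3. Near Lefty1 it was -32.2 at 87434 bp downstream and -4.75 at 15103 bp upstream, and near Lefty2 17.4 at 18886 bp upstream. Near Nodal it was -24.5 at 76278 bp upstream and 14.1 at 74285 bp downstream, and near Fgf8 15.3 at 3601 bp and 9.78 at 4742 bp upstream. By fold enrichment, the order turned only 12131 and 7373 bp upstream of Wnt3a and 87434 bp downstream of Lefty1. Elsewhere the folds overlapped on a day, or K20R was higher on both days. For the Fgf8 site 3601 bp upstream, day 0 K20R folds of 55.2 and 50.3 exceeded WT folds of 38.1 and 28.3. Its day 4 K20R folds were higher too, 53.5 and 75.1 against 24.1 and 29.5. The turn therefore depended on the scale.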

How the results depend on the processing

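With lists of one length, the K20R minus WT difference in peaks was -2 on each day and the difference between days was 0. Lost sites were then 3 of 76 at day 4 (5.63% over all sites) and 0 of 71 at day 0 (3.21%). Gained sites were 1 of 71 on each day (4.89% over all sites at day 4 and 3.11% at day 0). With differentiation, the same lists gave 3 of 71 sites lost (5.94% over all sites) and 4 of 76 gained (5.75%) in WT. In K20R they gave 2 of 71 lost (4.0%) and 1 of 71 gained (3.33%). At a -log10 q of at least 5, 6 sites were lost at day 0, 3 were lost with differentiation in WT and 1 was gained in K20R. At that cutoff 6 of 28 WT and 3 of 25 K20R H3K27ac peaks were unshared. The shares over all sites and all H3K27ac peaks at this cutoff are not given here, so nothing is read from these counts. Windows of 50 kb gave 8 lost sites at day 4, 5 at day 0, 4 lost with differentiation in WT and 1 in K20R. In them 28 of 70 WT and 17 of 62 K20R H3K27ac peaks were unshared. Windows of 200 kb gave 34 lost at day 4, 13 lost and 10 gained in WT and 7 lost in K20R with differentiation. In them 76 of 174 WT and 69 of 169 K20R H3K27ac peaks were unshared. Over the whole lists 36.9% of WT and 46.9% of K20R H3K27ac peaks were unshared. The numbers of CTCF sites compared in these windows are not given here, so their lost and gained counts are not set against shares over all sites. The strength difference (main values -3.68 at day 0 and -3.85 at day 4) was -1.93 and -0.766 at 50 kb (exact permutation p = 1.0 for both), -5.77 and -9.34 at 200 kb (exact permutation p = 0.333 for both) and -6.05 and -7.65 by the percentile of -log10 p (exact permutation p = 0.667 and 0.333). Ranked among constant sites, an alternative chosen after seeing the data, the strength difference was 0.302 at day 0 and 6.69 at day 4. Wide and narrow windows around the summits in place of whole peaks, peaks within 1 kb counted as shared and an overlap of 50% of the shorter peak left the counts within 1.5 times.

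Leaving out each library in turn, the peak difference ran from -53 to -1 at day 0 and from -37 to -23 at day 4, and the difference between days from -29 to 23. Lost sites ran from 21 to 29 at day 4 and from 11 to 52 at day 0, and gained sites from 0 to 10 and from 0 to 5. With differentiation WT lost 8 to 39 and gained 6 to 20, and K20R lost 7 to 13 and gained 0 to 13. The strength difference ran from -9.24 to 1.59 at day 0, turning without WT replicate 1, and from -6.08 to -2.87 at day 4. A group of 1 library passes the rule for a lost site more easily, which raises these counts. With the replicate number as a block, the peak difference was -27 at day 0 and -30 at day 4 and the strength difference -3.68 and -3.85 (smallest exact p 0.5). The rule for lost and gained sites takes no block, so it was not rerun. Same-numbered libraries did not deviate together in percentile (r of -0.00612 at day 0 and 0.0418 at day 4 over constant sites). Percentiles within a list hide shifts of a whole list, so this does not settle whether the numbers pair the libraries. The cause of these changes was not tested.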
